A study of Mus musculus with 19 samples.

Results

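The 45 genes described here encode soluble hydrolases of the lysosome, their cofactors and carriers, and proteins of the lysosomal membrane. They were chosen by symbol, with earlier results of these data known. All 45 were found in both deposited count tables, which hold 20436 genes each. The list holds 10 proteases, 12 glycosidases, 4 sulfatases, 5 lipid hydrolases or phosphatases, 4 cofactors or carriers and 10 membrane proteins. Acute hippocampal slices of wild-type male mice, aged 28 to 42 days by the labels, received either DHPG (100 µM, 5 min) or ACSF as vehicle (basal), and slices of both groups then went into ice-cold ACSF with cycloheximide (100 µg/ml), which holds elongating ribosomes in place. DHPG is an agonist of group I metabotropic glutamate receptors. RNA-seq gave 4 basal and 5 DHPG libraries, and ribosome profiling, which sequences the stretches of mRNA shielded by a ribosome (ribosome-protected fragments, RPF), gave 5 basal and 5 DHPG libraries. Slices of 6 mice were pooled for a library, and libraries of both treatments share replicate numbers 1 to 5. The DHPG RNA library of replicate 5 had no basal partner.

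Lysosomal hydrolases are made at the rough endoplasmic reticulum, most of them are tagged with mannose phosphate in the Golgi, and they become active in the acid lumen that the V-ATPase proton pump maintains. There they break down proteins, glycans, sulfated sugars and lipids delivered by endocytosis and autophagy, and the membrane proteins seal the compartment and move cholesterol, ions and enzymes across or to it. In brain the pathway is used by neurons and glia, with microglia rich in several cathepsins and in Cd68, and inherited loss of many of these genes causes lysosomal storage disease with neurodegeneration. The transcription factor TFEB binds an E-box in the promoters of many lysosomal genes.

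Total counts ran from 4870813 to 7793244 in the RNA libraries and from 5692064 to 22092434 in the RPF libraries. The 45 genes took 0.808% of the RNA counts (0.683% to 0.912% per library) and 1.09% of the RPF counts (0.918% to 1.21%), and the lowest count of any of them in a library was 23 in RNA (Sgsh) and 51 in RPF (Ctsh). All 10 hippocampus markers and all 12 neuron markers were above 0 in every library, and so were all 15 microglia, 12 astrocyte and 12 oligodendrocyte markers. The slices were a mixture of cell types, and fewer cells of a type cannot be told apart from less RNA per cell. Thalamus markers were present at a summed 269 to 378 CPM in RNA (CPM, a count scaled to the size of its library by edgeR's TMM method).

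At rest, the genes spanned a wide range of levels. Levels were compared between genes per length, as CPM per kb of transcript for RNA and per kb of coding sequence for RPF. In basal RNA, Psap (prosaposin, the precursor of the saposins) was highest at 780 ± 145 CPM per kb (SD, n = 4), followed by the aspartic protease Ctsd at 226 ± 36.6, Laptm4a at 211 ± 33.8, Ids at 194 ± 12.1 and Gaa at 170.4 ± 43.9. The lowest was Sgsh at 1.10 ± 0.069. The median of the 45 was 30.8 CPM per kb, against 9.90 for all genes with both values. In basal RPF, Psap was again highest at 2612 ± 320 CPM per kb (SD, n = 5), followed by Ctsb at 999 ± 106 and Lamp1 at 502 ± 80.9, and the median of the 45 was 81.2 against 18.8. In this order of levels, 35 of 44 neighbours in RNA and 33 of 44 in RPF differed by no more than the larger of their SDs. Psap stood apart from the next gene in both assays.

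**Figure D1:**
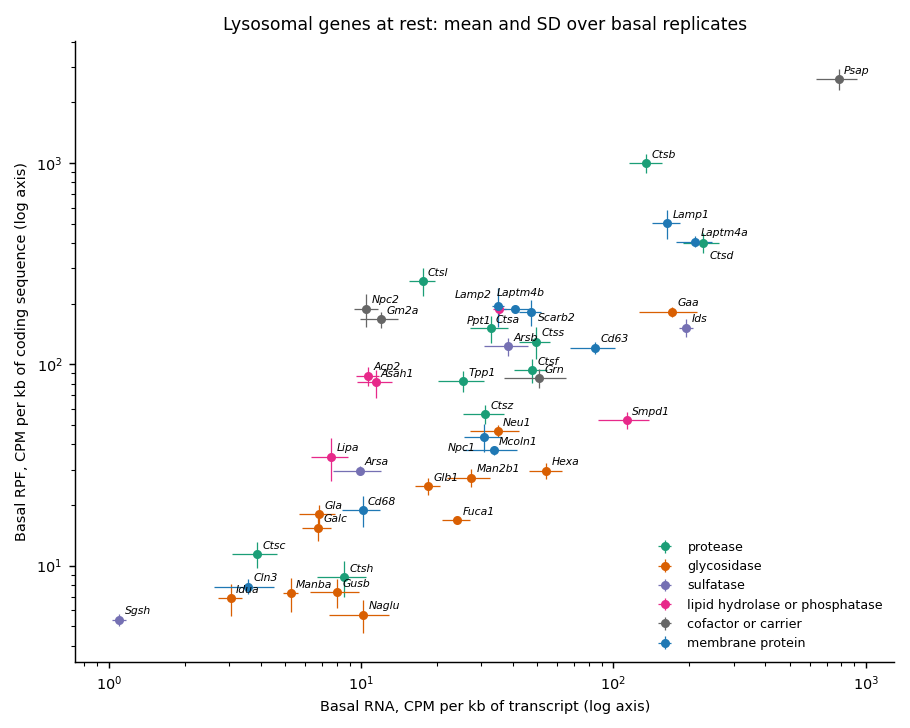
Basal level of each of the 45 genes in RNA (horizontal, CPM per kb of transcript) and RPF (vertical, CPM per kb of coding sequence) on log axes, with bars for the SD over 4 RNA and 5 RPF libraries and colours for the kind of protein. Psap lies at the top right with 780 CPM per kb in RNA and 2612 in RPF, Sgsh at the lower left with 1.10 in RNA, and Smpd1 and Naglu lie low in RPF for their RNA.

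The RPF to RNA ratio at rest was the log2 RPF level per kb less the log2 RNA level per kb, set to 0 at the median of all genes, in basal replicates 1 to 4. Over the 45 genes its median was 0.35, and 29 genes lay above and 16 below the median of all genes. The median in single replicates was 0.50, 0.27, 0.18 and 0.30. The kinds of protein differed in level. The median was 1.95 for the cofactors and carriers, 1.56 for the lipid hydrolases and phosphatases, 0.80 for the sulfatases, 0.66 for the proteases, 0.21 for the membrane proteins and -0.56 for the glycosidases, of which 3 of 12 lay above the median of all genes. These are descriptions over genes, which are not replicates, and no test was made between the kinds. The glycosidase median was below 0 in each of the 4 replicates, from -0.85 to -0.42, and the cofactor median above 0 in each, from 1.76 to 2.06. Without the division by length the medians were 1.12 for the cofactors and carriers, 1.12 for the lipid hydrolases and phosphatases, 0.79 for the proteases, 0.50 for the sulfatases, 0.30 for the membrane proteins and -0.100 for the glycosidases. The order of the sulfatases and proteases thus depended on length, as did the gap between the cofactors and the lipid hydrolases. The membrane proteins and, below them, the glycosidases stayed at the lower end. In the order of ratios, 38 of 44 neighbours differed by no more than the larger of their SDs, and Npc2 stood apart at the top.

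**Figure D2:**
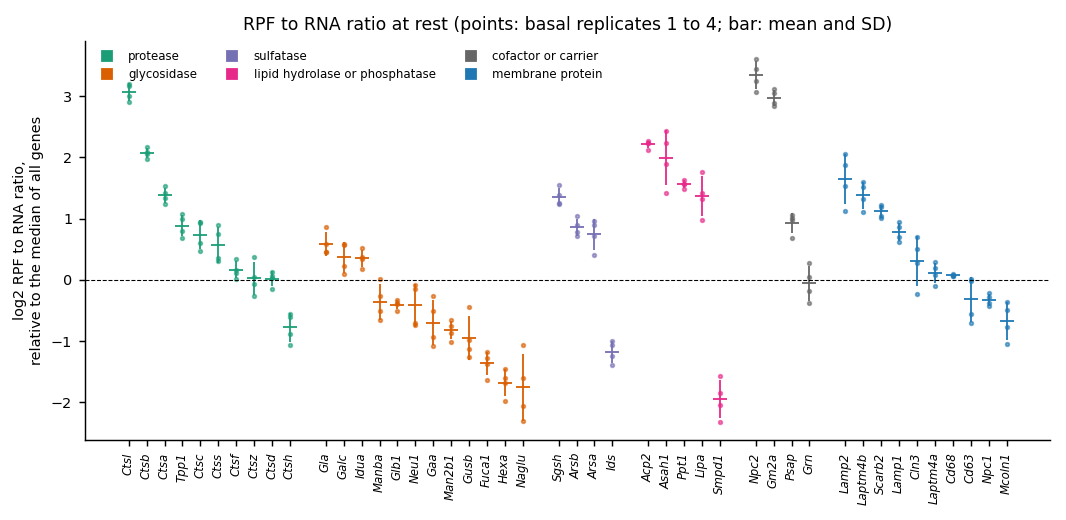
RPF to RNA ratio at rest (log2, relative to the median of all genes, dashed line) for each gene, grouped by kind of protein and sorted within it, with points for basal replicates 1 to 4 and a bar for their mean and SD. The ratios run from 3.34 for Npc2 to -1.94 for Smpd1, and 9 of the 12 glycosidases lie below the line.

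Replicates differed by more than treatments did. Set against its own mean over the libraries of an assay, the median gene of the list lay at -0.26 in basal RNA 4 and at -0.26 in DHPG RNA 4, against -0.037 to 0.21 in basal RNA 1 to 3 and -0.093 to 0.16 in the remaining DHPG RNA libraries (log2 CPM). In RPF it was -0.24 in basal 4 and -0.18 in DHPG 4, -0.14 in basal 5 and -0.071 in DHPG 5, and 0.050 to 0.19 in the 6 libraries of replicates 1 to 3. In basal RPF 4, 0 of the 45 genes were above their own mean, and in DHPG RPF 1, 43 were. Both treatments of a replicate lay on the same side of the mean except in RNA replicate 1, where the basal library was at -0.037 (17 of 45 genes above their own mean) and the DHPG library at 0.086 (30 of 45). Microglia markers moved likewise: their median was -0.32 in basal RNA 4, -0.29 in DHPG RNA 4, -0.31 in basal RPF 4 and -0.12 in DHPG RPF 4. Neuron markers lay at -0.023, 0.15, 0.038 and 0.071 in the same 4 libraries. The fall was not limited to microglia markers. Oligodendrocyte markers summed to 3100 CPM in basal RNA 4, against 5401 to 6235 in basal RNA 1 to 3. In basal RPF 4 they summed to 4966 CPM, against 8834 to 10376 in the other basal RPF libraries. Proteasome subunits summed to 4462 CPM in basal RNA 4 (4048 to 4469 in basal RNA 1 to 3) and did not fall. The part of the microglia or of other cell types in the replicate differences of the lysosomal genes was not tested.

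**Figure D3:**
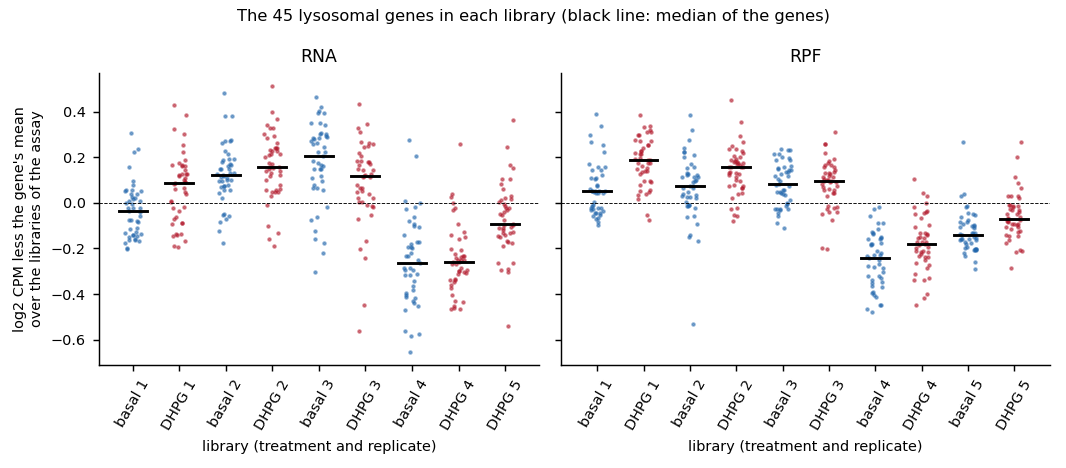
Log2 CPM of each of the 45 genes (points) in each library, less the gene's mean over the libraries of the assay, for RNA (left) and RPF (right), in replicate order with basal in blue and DHPG in red, and with a black line at the median. The median is lowest in replicate 4 of both assays, at -0.26 in basal RNA and -0.24 in basal RPF, and in RPF the line is higher after DHPG than in the basal library of each replicate, by little in replicate 3, where the median of the paired differences was -0.012.

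To ask whether DHPG changed these RNAs, a quasi-likelihood test in edgeR contrasted the groups within replicate numbers (the block). At an adjusted p of 0.01, 0 of the 45 genes were called in RNA, against 0.00773% of all genes tested. DESeq2 with the block called 0 as well. So did ComBat batch correction by replicate number followed by DESeq2, which gave 30 of the 45 an adjusted p. It called 1.8% of all genes with one. At an unadjusted p under 0.05, 2 of the 45 were higher (Gm2a and Npc1; 5.2% of all genes) and 0 were lower (2.81% of all genes). The median log2 fold change was -0.014, with 21 genes higher (52.1% of all genes) and 24 lower, against a median of 0.0068 over all genes. In single replicate pairs the median was 0.10, 0.027, -0.080 and -0.0067. It was 0.024 without replicate 3 and -0.011 without replicate 4. In every pair, 1 gene was higher (Gm2a; 8.67% of all genes) and 3 were lower (Gla, Lipa and Scarb2; 6.97% of all genes). The estimates with the largest size were -0.31 (SE 0.18) for Ctsc, 0.24 (SE 0.14) for Cln3 and 0.23 (SE 0.14) for Idua, and none of these moved the same way in every pair. Single replicates weighed on them: Ctsc was at -0.60 without replicate 1 and -0.15 without replicate 4, Cln3 at 0.14 without replicate 2 and 0.44 without replicate 3, and Idua at 0.099 without replicate 4. In no gene did the basal and DHPG values fail to overlap, against 0.51% of all genes.

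In RPF, 0 of the 45 genes were called at an adjusted p of 0.05 in edgeR, against 0.22% of all genes tested, but most of them had a slightly higher value after DHPG. The log2 fold change was above 0 for 39 of 45 genes, against 51.4% of all genes, and its median was 0.068, against 0.0031 over all genes. Because the 45 were chosen with earlier results of these data known, this shift is a description and not independent support. At an unadjusted p under 0.05, 18 of the 45 were higher (6.55% of all genes) and 0 were lower (4.21% of all genes). These shares are not like for like, because the median SE was 0.040 for the 45 and 0.060 over all genes. A shift of the same size thus reaches a small p more easily in the 45. The 45 also shared differences between replicates, so they are not independent of each other. By DESeq2 with the block 0 were called, but it gave most of the 45 no adjusted p, among them Laptm4b, Sgsh and Ctsf. By ComBat followed by DESeq2, 12 of the 31 with an adjusted p were called, against 9.57% of all genes with one. In single replicate pairs the median of the 45 was 0.11, 0.073, -0.012, 0.081 and 0.080, with 38, 36, 19, 35 and 35 genes higher, so pair 3 did not share the shift. Without replicate 4, whose libraries lay lowest, the median was 0.064. In every pair, 8 genes were higher (Ctsf, Ids, Arsb, Sgsh, Ppt1, Scarb2, Laptm4a and Laptm4b; 5.16% of all genes) and 0 were lower (4.73%). The basal and DHPG values overlapped for each of the 45 genes, while they did not for 0.394% of all genes. The largest log2 fold change, 0.28 for Sgsh, went with a 1.22-fold higher mean CPM, and that of the other 44 genes was at most 0.13. Leaving out 1 replicate moved the log2 fold change by over 1.5 times, or turned its sign, in 29 of the 45 genes, and 16 genes, among them the 8 higher in every pair, stayed within that range. Without the block, 2 genes in place of 18 were higher at an unadjusted p under 0.05, and without replicate 1 there were 8.

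**Figure D4:**
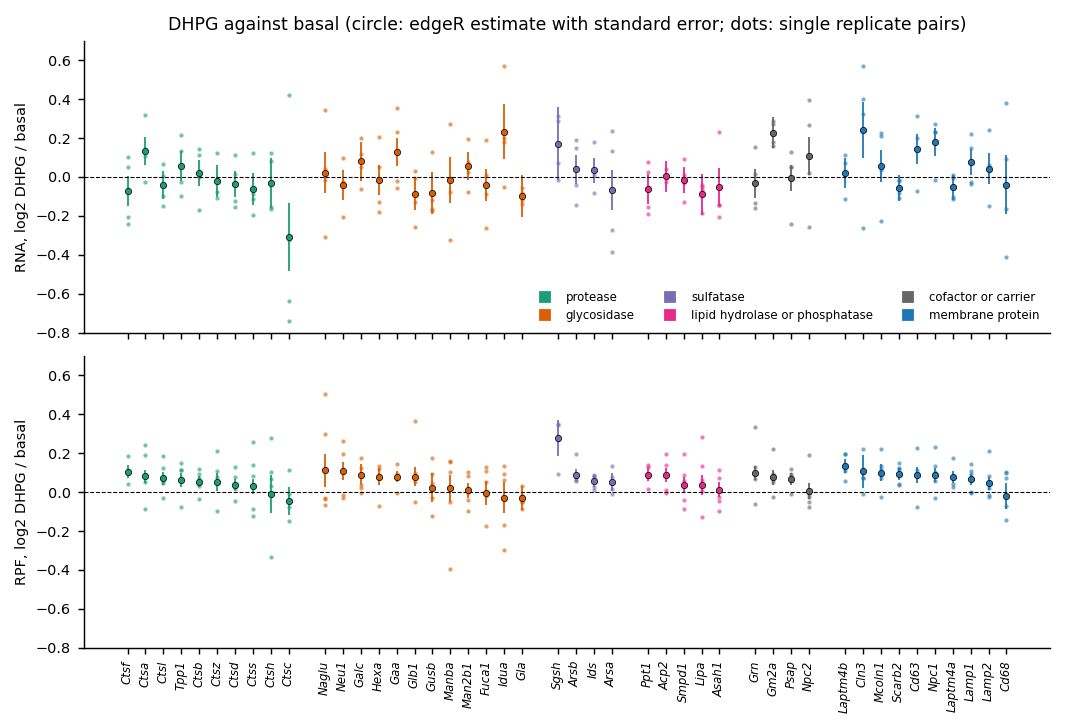
Log2 fold change of DHPG over basal for each gene in RNA (upper panel) and RPF (lower panel), with a circle and bar for the edgeR estimate and its standard error and dots for single replicate pairs (4 in RNA, 5 in RPF), coloured by kind of protein and sorted by the RPF estimate. The RNA estimates scatter on both sides of 0, while 39 of the 45 RPF estimates lie above it, and all but that of Sgsh (0.28) are at most 0.13.

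The proteases had a median RPF log2 fold change of 0.053, with 8 of 10 higher (51.4% of all genes) and 3 of 10 higher at an unadjusted p under 0.05 (6.55% of all genes). Ctsd, the aspartic protease of the lysosome (chr7:142375911-142388038 in mm10), had 451, 507, 573 and 391 RNA CPM in basal replicates 1 to 4 and 457, 548, 515, 359 and 424 in DHPG replicates 1 to 5. Its RPF were 489, 507, 525, 405 and 426 CPM in basal replicates 1 to 5 and 535, 519, 508, 427 and 430.3 after DHPG. Replicates 4 and 5 were lowest in RPF under both treatments, and the groups overlapped. Its RPF log2 fold change was 0.039 (SE 0.030, adjusted p = 0.693 in edgeR), with 0.017 without replicate 1 and 0.062 without replicate 3. Ctsb, an abundant cysteine protease, had 629, 694, 730.2 and 514 RNA CPM in basal replicates and 679, 766, 649.5, 514 and 521 after DHPG. In RPF it had 972, 1040.1, 1064, 838 and 866 CPM and, after DHPG, 1037, 1128, 1037, 856 and 911. Again replicates 4 and 5 were low in RPF, and 4 of 5 pairs were higher after DHPG, by 0.054 (SE 0.029, adjusted p = 0.513 in edgeR). Ctsb shares 16.3% of its exon bases with Fdft1 on the opposite strand, and the strand setting of the counting is not given in the sources used here.

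Ctsf, a cysteine protease, was higher in RPF in 5 of 5 pairs. It had 138, 136, 135, 101 and 111 CPM in the basal RPF libraries and 148, 147, 139.6, 107 and 126 after DHPG. Its RNA was 89.9, 101, 108 and 76.8 CPM at rest and 96.5, 105, 93.5, 64.8 and 79.2 after DHPG, lowest in replicate 4 in both groups. The RPF change was 0.11 (SE 0.035, adjusted p = 0.218 in edgeR). Ctsl, another cysteine protease, had the highest ratio of the proteases at rest (3.07 ± 0.14, SD, n = 4), at the 96.2 percentile of all genes. It had 125, 109, 105 and 94.0 RNA CPM at rest and 131, 109, 94.2, 87.8 and 106 after DHPG. Its RPF were 275, 268, 271, 192 and 215 CPM at rest and 313, 277, 265, 200.2 and 234 after DHPG. The RNA was highest in replicate 1 in the basal and DHPG groups, while the RPF fell into a high trio, replicates 1 to 3, and a low pair. The other 6 proteases are Ctsa, a serine carboxypeptidase that also protects beta-galactosidase and neuraminidase, Ctsc, a dipeptidyl peptidase, Ctsh, a cysteine protease with aminopeptidase activity, Ctss, the cysteine protease of antigen-presenting cells and microglia, Ctsz, a carboxypeptidase, and Tpp1, a tripeptidyl peptidase. Their RPF log2 fold changes ran from -0.046 (Ctsc) to 0.081 (Ctsa, 0.047 without replicate 1). Ctsh was the only protease with a ratio below the median of all genes (-0.78 ± 0.24).

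The glycosidases had a median RPF log2 fold change of 0.052, with 9 of 12 higher (51.4% of all genes) and 2 of 12 higher at an unadjusted p under 0.05 (6.55%). Gaa, the acid alpha-glucosidase that degrades glycogen, had 562, 727, 767 and 421 RNA CPM at rest and 660.5, 717, 738, 538 and 551 after DHPG. Its RPF varied less, with 544, 525, 519, 484 and 478 CPM at rest and 575, 561, 517, 535 and 509 after DHPG. Basal RNA 4 was the lowest RNA value, and the RPF were higher in 4 of 5 pairs (0.080, SE 0.030, adjusted p = 0.304 in edgeR). Hexa, the alpha subunit of beta-hexosaminidase A, which degrades GM2 ganglioside, had one of the 4 lowest ratios at rest (-1.68 ± 0.22). It had 95.9, 118, 125 and 93.6 RNA CPM at rest and 99.5, 137, 115, 82.5 and 98.2 after DHPG, and its RPF were 47.8, 50.5, 45.1, 42.1 and 40.2 CPM at rest and 50.7, 55.4, 48.0, 40.1 and 43.6 after DHPG. Both groups overlapped in both assays, and the RPF change was 0.080 (SE 0.046, adjusted p = 0.547 in edgeR).

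Naglu, the alpha-N-acetylglucosaminidase of heparan sulfate degradation, had a ratio of -1.76 ± 0.54, with the widest SD of the list. Its RNA was 24.5, 28.6, 34.0 and 17.2 CPM at rest and 24.3, 23.1, 35.0, 21.9 and 28.8 after DHPG, and its RPF 12.3, 8.71, 12.6, 12.5 and 15.3 and 15.1, 12.4, 12.3, 12.2 and 14.6. Basal RPF 2 was lowest and basal RPF 5 highest, so the basal group spanned the whole DHPG group. Fuca1, the alpha-L-fucosidase, had a ratio of -1.36 ± 0.19, with 55.7, 62.8, 70.5 and 53.2 RNA CPM at rest and 56.0, 71.7, 58.8, 50.0 and 53.8 after DHPG. Its RPF were 21.1, 22.3, 21.6, 21.6 and 22.6 CPM at rest and 22.8, 23.2, 19.1, 23.7 and 22.3 after DHPG. The basal RPF lay within a narrow band, and the change of -0.0031 (SE 0.062, adjusted p = 0.990 in edgeR) turned its sign under other settings. Gla, the alpha-galactosidase A lost in Fabry disease, was lower in RNA in 4 of 4 pairs, with 18.8, 26.6, 21.3 and 19.5 CPM at rest and 18.1, 24.1, 19.6, 18.4 and 18.3 after DHPG. Its RPF were 23.6, 24.7, 20.7, 20.1 and 19.5 CPM at rest and 23.3, 23.8, 21.1, 19.4 and 18.3 after DHPG. Replicate 2 was highest in all 4 groups. The RNA change was -0.099 (SE 0.11, adjusted p = 0.852 in edgeR). The other 7 are Galc (galactosylceramidase), Gusb (beta-glucuronidase), Glb1 (beta-galactosidase), Idua (alpha-L-iduronidase), Manba (beta-mannosidase), Man2b1 (alpha-mannosidase) and Neu1 (neuraminidase), and their RPF log2 fold changes ran from -0.030 (Idua) to 0.11 (Neu1, 0.060 without replicate 2). Glb1 shares 6.89% of its exon bases with Tmppe on the same strand.

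All 4 sulfatases had higher RPF after DHPG, with a median of 0.074, and 3 of the 4 were higher in every pair (5.16% of all genes). Sgsh, the heparan N-sulfatase lost in Sanfilippo syndrome (chr11:119343425-119355536), had 8.38, 7.67, 7.90, 6.89 and 8.04 RPF CPM at rest and 10.7, 9.40, 9.55, 7.35 and 10.3 after DHPG. Its RNA was 4.57, 4.74, 5.25 and 4.66 CPM at rest and 4.52, 5.98, 6.48, 4.92 and 4.54 after DHPG. The DHPG RPF were above all basal values in 4 of 5 replicates, and DHPG RPF 4 lay inside the basal range. The RPF change of 0.28 (SE 0.092, adjusted p = 0.225 in edgeR) had the largest size and the largest standard error but 1 among the 45. Sgsh had the lowest level of the list, and 21.9% of its exon bases lie opposite Card14. Ids, the iduronate sulfatase on the X chromosome, had 985, 1005, 875 and 994 RNA CPM at rest and 931, 1012, 992, 1017 and 1110.3 after DHPG. Its RPF were 239, 275, 260.0, 217 and 221 CPM at rest and 253, 291, 277, 221 and 223 after DHPG. The ratio was -1.18 ± 0.18, the lowest of the sulfatases. The RPF were higher in 5 of 5 pairs by 0.058 (SE 0.031, adjusted p = 0.4997 in edgeR). Arsb, arylsulfatase B, was also higher in every pair (0.089, SE 0.032, adjusted p = 0.280 in edgeR), and Arsa, arylsulfatase A, in 4 of 5 (0.054).

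The 5 lipid hydrolases and phosphatases had a median RPF change of 0.039, and all 5 were above 0 (51.4% of all genes). Ppt1, the palmitoyl-protein thioesterase lost in infantile neuronal ceroid lipofuscinosis, had 158, 169, 174, 148 and 154 RPF CPM at rest and 172, 186, 185, 150.0 and 163 after DHPG. Its RNA was 87.1, 84.5, 88.3 and 76.9 CPM at rest and 91.8, 85.9, 77.4, 69.0 and 74.2 after DHPG. The RPF were higher in 5 of 5 pairs, by little in pair 4, with a change of 0.090 (SE 0.033, adjusted p = 0.284 in edgeR). Acp2, the lysosomal acid phosphatase, had the fourth highest ratio of the list (2.21 ± 0.063). It had 50.0, 53.4, 53.4 and 42.1 RNA CPM at rest and 49.8, 54.8, 53.7, 41.3 and 48.9 after DHPG, and RPF of 112, 108, 121, 92.3 and 96.1 at rest and 124, 123, 122, 92.1 and 103 after DHPG. Replicate 4 was lowest throughout, and Acp2 shares 13.3% of its exon bases with Ddb2 on the opposite strand.

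Smpd1, the acid sphingomyelinase lost in Niemann-Pick disease types A and B, had the lowest ratio of the list (-1.94 ± 0.32), at the 6.83 percentile of all genes. It had 231, 295, 349 and 214 RNA CPM at rest and 233, 314, 319.8, 209 and 269 after DHPG, and RPF of 106, 96.5, 98.0, 80.5 and 99.2 at rest and 113, 111, 92.2, 83.7 and 96.4 after DHPG. Replicates 2 and 3 were highest in RNA, but in RPF replicate 1 was. The lowest rank of Smpd1 rested on length. Mean basal CPM, not divided by it, were 272 in RNA and 96.0 in RPF for Smpd1. For Ids they were 965 and 243, less RPF for its RNA than in Smpd1. Lipa, the lysosomal acid lipase, was lower in RNA in 4 of 4 pairs, with 22.2, 28.02, 19.1 and 21.0 CPM at rest and 19.5, 27.0, 18.6, 20.1 and 19.3 after DHPG. Its RPF were 38.2, 51.5, 46.2, 28.5 and 32.1 CPM at rest and 46.5, 53.8, 42.3, 31.3 and 32.3 after DHPG, and so spread widely between replicates. The RNA change was -0.089 (SE 0.11, adjusted p = 0.863 in edgeR) and the RPF change 0.037, which was 0.00051 without replicate 1, 0.020 without replicate 4 and 0.10 without replicate 3. Asah1, the acid ceramidase, had a ratio of 1.997 ± 0.44 and an RPF change of 0.012.

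Per kb, the cofactors and carriers included the genes with the most RPF for their RNA. This rested on length: mean basal CPM, not divided by it, were 34.7 in RNA and 73.2 in RPF for Npc2. For Lamp2 they were 76.3 and 232, and for Asah1 31.7 and 91.1, more RPF for their RNA than in Npc2. Npc2, the soluble cholesterol carrier (chr12:84754562-84773152), had the highest ratio, 3.34 ± 0.24, at the 97.1 percentile of all genes. It had 33.7, 34.2, 39.8 and 30.9 RNA CPM at rest and 40.5, 45.1, 40.4, 25.9 and 33.3 after DHPG, and RPF of 86.9, 78.9, 82.5, 55.0 and 62.8 at rest and 84.0, 78.3, 78.2, 54.1 and 71.7 after DHPG. Its RPF were lower after DHPG in 4 of 5 pairs, pair 5 was higher, and the estimate was 0.0042 (SE 0.042, adjusted p = 0.982 in edgeR). Gm2a, the GM2 activator that presents the ganglioside to hexosaminidase A, had a ratio of 2.97 ± 0.13. It was higher in RNA in 4 of 4 pairs, with 46.7, 54.4, 58.0 and 38.8 CPM at rest and 57.2, 60.8, 65.8, 46.9 and 48.3 after DHPG. Its RPF were 88.0, 90.6, 96.5, 76.2 and 82.3 CPM at rest and 93.8, 94.0, 94.8, 79.9 and 96.1 after DHPG. The RNA change, 0.23 (SE 0.080, adjusted p = 0.545 in edgeR), had the smallest p of the 45 in RNA, and the RPF change was 0.076 (SE 0.039, adjusted p = 0.488 in edgeR), or 0.037 without replicate 5.

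Psap (chr10:60277627-60302597) had 2013, 2256, 2460.4 and 1566 RNA CPM at rest and 2199, 2335, 2081, 1621 and 1793 after DHPG. Its RPF were 4409.8, 4812, 4449.5, 3533 and 3832 CPM at rest and 4794, 5008, 4412, 3739 and 4094 after DHPG. Replicate 4 was lowest in all 4 groups, and the RPF change was 0.068 (SE 0.029, adjusted p = 0.375 in edgeR), with 4 of 5 pairs higher. Grn, progranulin, which is secreted and also cleaved in the lysosome, had 115, 136, 149.6 and 75.2 RNA CPM at rest and 116, 124, 134, 83.6 and 106 after DHPG. Its RPF were 159.9, 161, 158, 122 and 144 CPM at rest and 201, 172, 152, 128 and 158 after DHPG. DHPG RPF 1 was the highest value, pair 1 gave the largest difference, and the estimate of 0.098 (SE 0.038, adjusted p = 0.318 in edgeR) was 0.052 without replicate 1.

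The membrane proteins had the highest median RPF change of the 6 kinds, 0.089, with 9 of 10 higher and 7 of 10 higher at an unadjusted p under 0.05, against 51.4% and 6.55% of all genes. Laptm4b, a transmembrane protein of late endosomes and lysosomes (chr15:34238028-34284302), had the smallest p of the list. It had 122, 121, 120.3, 111 and 112 RPF CPM at rest and 139.8, 139, 125, 121 and 120.4 after DHPG. Its RNA was 72.9, 82.8, 92.5 and 62.0 CPM at rest and 73.9, 87.2, 85.3, 67.0 and 76.0 after DHPG. The RPF were higher in 5 of 5 pairs and the groups met at their edges, with DHPG replicates 4 and 5 inside the basal range. The change was 0.13 (SE 0.035, adjusted p = 0.0876 in edgeR), and it passed without replicate 3 (0.16, adjusted p = 0.0433 in edgeR). Laptm4a, its paralog, had 330.1, 401, 446 and 320.2 RNA CPM at rest and 332, 399, 412, 298 and 388 after DHPG. Its RPF were 351, 368, 374, 319 and 342 CPM at rest and 397, 379, 395, 337 and 348 after DHPG. They too were higher in 5 of 5 pairs, by 0.077 (SE 0.030, adjusted p = 0.335 in edgeR).

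Scarb2, or LIMP-2, the receptor that carries glucocerebrosidase to the lysosome (chr5:92441314-92506833), was higher in RPF in 5 of 5 pairs and lower in RNA in 4 of 4. Its RPF were 241, 277, 297, 205 and 229 CPM at rest and 262, 302, 306, 227 and 235 after DHPG. Its RNA was 229, 227, 239.7 and 189 CPM at rest and 226, 224, 227, 176 and 219.6 after DHPG. The RPF change was 0.091 (SE 0.031, adjusted p = 0.247 in edgeR) and the RNA change -0.057 (SE 0.067, adjusted p = 0.863 in edgeR). Lamp1 and Lamp2 are the main glycoproteins of the lysosomal membrane. Lamp1 had 355, 389, 409 and 301 RNA CPM at rest and 415, 432, 402, 293 and 356 after DHPG. Its RPF were 635, 654, 639, 432 and 547 CPM at rest and 701, 698, 636, 465 and 546 after DHPG. Lamp1 was lowest in replicate 4 in all 4 groups, and its RPF change was 0.065 (SE 0.030, adjusted p = 0.420 in edgeR). Lamp2 had 81.0, 71.7, 74.1 and 78.2 RNA CPM at rest and 83.0, 84.9, 77.4, 70.5 and 84.1 after DHPG. Its RPF were 229, 289.9, 273, 166 and 203 CPM at rest and 265, 285, 278, 176 and 201 after DHPG. The RNA of Lamp2 spread little, but its RPF ran from 166 to 290 CPM, and replicate 4 was lowest in both RPF groups. The RPF change was 0.046 (SE 0.033, adjusted p = 0.659 in edgeR) and was 0.012 without replicate 1.

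Npc1, the membrane protein that exports cholesterol handed over by Npc2, had 171, 176, 176 and 120.1 RNA CPM at rest and 206, 207, 174, 141 and 134 after DHPG. Its RPF were 164, 196, 181, 128 and 152 CPM at rest and 193, 215, 177, 138 and 157 after DHPG. Both assays were higher in all pairs but pair 3, with an RNA change of 0.18 (SE 0.072, adjusted p = 0.558 in edgeR) and an RPF change of 0.089 (SE 0.035, adjusted p = 0.331 in edgeR). Mcoln1, the TRPML1 channel that releases calcium from lysosomes, had 61.6, 75.8, 89.1 and 50.3 RNA CPM at rest and 72.1, 77.7, 76.1, 58.2 and 75 after DHPG. Its RPF were 64.1, 64.4, 64.9, 57.4 and 63.1 CPM at rest and 69.6, 75.04, 63.8, 63.1 and 66.4 after DHPG. Basal RPF 4 was the lowest RPF value and the other 4 basal values lay within 2 CPM of each other. The RPF change was 0.100 (SE 0.042, adjusted p = 0.373 in edgeR), or 0.061 without replicate 2. The other 3 are Cln3, the protein lost in juvenile Batten disease, Cd63, a tetraspanin, and Cd68, a heavily glycosylated protein of macrophages and microglia, with RPF changes of 0.11 (0.057 without replicate 3), 0.089 and -0.021 (0.033 without replicate 3).

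The difference between the assays was tested as the interaction of assay and treatment, fitted to the 19 libraries together. At an adjusted p of 0.05, 0 of the 45 genes were called in edgeR, and 0% of all genes tested, and limma called 0 as well. At an unadjusted p under 0.05 the RPF change exceeded the RNA change for 3 of the 45 (3.14% of all genes) and fell below it for 0 (3.63%). These 3 were Ctsf (0.18, SE 0.078), Scarb2 (0.15, SE 0.063) and Laptm4a (0.13, SE 0.062), with adjusted p = 0.708, 0.690 and 0.727 in edgeR. The median difference was 0.057, above 0 for 35 of 45 genes, against -0.0014 and 49.5% of all genes. It was 0.037 without replicate 3 and 0.089 without the block. Other lists, described below, lay higher: V-ATPase subunits at 0.077 (16 of 18 above 0) and proteasome subunits at 0.076 (27 of 31). Genes of translocation and folding in the endoplasmic reticulum were at 0.073 (25 of 30) and microglia markers at 0.10 (12 of 15). The further lysosomal genes were at 0.053 (23 of 35), those of sorting, fusion and transcription at -0.0045 (14 of 30) and oligodendrocyte markers at -0.053 (1 of 12). By direction alone, 20 genes were higher in both assays, 19 were lower in RNA and higher in RPF, 1 was higher in RNA and lower in RPF, and 5 were lower in both. Of all 12691 genes tested in both assays, the same 4 counts were 3873, 2666, 2735 and 3417.

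Genes of neighbouring systems were taken from lists given by symbol. Of 36 further lysosomal genes tested in RPF, 34 were higher with a median of 0.064 (51.4% of all genes were higher), and 0 were called by edgeR (7 at an unadjusted p under 0.05, all higher). In the V-ATPase, the proton pump, 11 of 18 subunits were higher (median 0.017). Atp6v0c, its proteolipid subunit, was called, with 2052, 1756, 1837, 1999.7 and 2060.1 RPF CPM at rest and 2264, 2077, 1879.8, 2167 and 2251 after DHPG. The Atp6v0c values overlapped between the groups but were higher after DHPG in 5 of 5 pairs (0.13, SE 0.030, adjusted p = 0.0337 in edgeR), and the call was lost without replicate 1, 2, 4 or 5 and without the block. Of 30 genes of sorting, fusion and lysosomal transcription tested, 17 were higher (median 0.013), and of 30 genes of translocation and folding in the endoplasmic reticulum, through which all 45 proteins pass, 27 were higher (median 0.045). Proteasome subunits, part of the other main route of protein breakdown, were higher in 5 of 31 (median -0.021).

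Markers of glia and thalamus also had higher RPF after DHPG, with differences between the pairs. Of the microglia markers 14 of 15 were higher after DHPG in RPF (median 0.093), with a summed level of 477 to 681 CPM at rest and 562 to 753 after DHPG. Astrocyte markers were higher in 12 of 12 (median 0.078; 6361 to 7575 CPM at rest and 6539 to 7958 after DHPG), oligodendrocyte markers in 10 of 12 (median 0.11; 4966 to 10376 and 5798 to 11774 CPM), and thalamus markers in 10 of 11 tested (median 0.31; 311 to 379 and 328 to 432 CPM). Neuron markers were higher in 4 of 12 (median -0.0032; 11644 to 12504 and 11650 to 12494 CPM). Endothelial and mural markers were higher in 2 of 12 (median -0.14; 229 to 289 and 230.3 to 294 CPM), and the 8 choroid plexus markers summed to 13.5 to 17.4 CPM at rest and 13.0 to 20.1 after DHPG, with Kcne2 at 0 in all basal RNA libraries. In RNA, where the lysosomal median was -0.014, microglia markers were higher in 8 of 15 (median 0.0015), astrocyte markers in 9 of 12 (median 0.066) oligodendrocyte markers in 12 of 12 (median 0.16) and thalamus markers in 8 of 9 tested (median 0.46). The 1 gene called in RNA over the whole table was the thalamus marker Prkcd (0.70, SE 0.11, adjusted p = 0.0044 in edgeR), and 6 of the 29 genes called in RPF were thalamus markers. By pair the lists differed. In RPF pair 5, where the lysosomal median was 0.080, that of the oligodendrocyte markers was -0.092 (2 of 12 higher) and that of the thalamus markers -0.14 (3 of 11). In pair 3, where the lysosomal median was -0.012, the astrocyte markers were at 0.071, the thalamus markers at 0.43 and the microglia markers at 0.013. The endothelial and mural markers were at 0.26, -0.59, -0.22, 0.12 and 0.12 in pairs 1 to 5, so pairs 1, 4 and 5 did not share their fall. The part of the glia and of any thalamic tissue in the RPF values of the lysosomal genes was not tested.

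**Figure D5:**
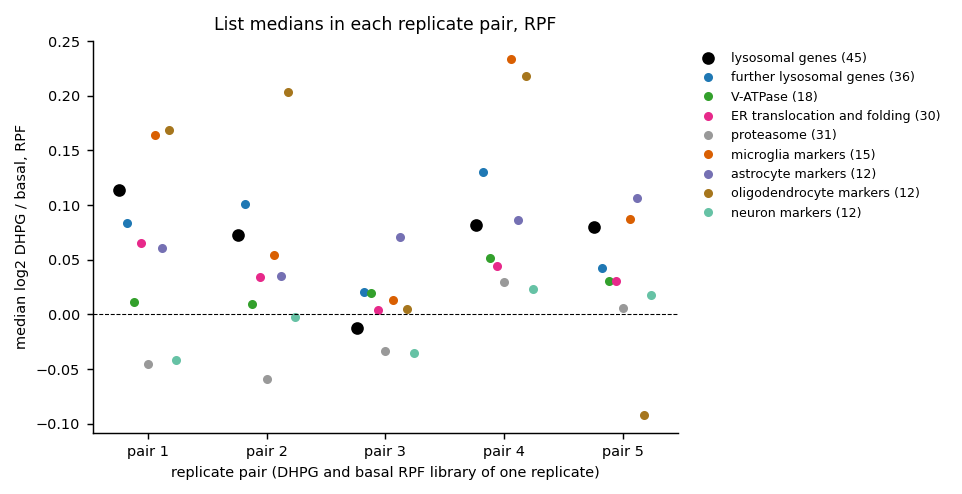
Median log2 fold change of DHPG over basal in RPF for each gene list (colours, number of genes in brackets) in replicate pairs 1 to 5. The 45 lysosomal genes (large black points) lie at 0.11, 0.073, -0.012, 0.081 and 0.080, below the microglia markers in pairs 1, 3, 4 and 5.

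Promoters were read because the TFEB binding site is known. RefSeq promoters of build GRCm38.p6, 250 bases before to 50 after a start site, were matched by symbol for 40 of the 45 genes. The E-box core CACGTG, a palindrome read the same on both strands, was found in 13 of the 40 genes (32.5%). It was in 8.09% of all genes with a promoter and 11.7% of those tested in RPF. Among the V-ATPase genes 30.8% held the core, and among the further lysosomal genes 19.2%. The longer TCACGTGA, which contains the core, was found in 5 (12.5%), against 1.12% of all genes and 2.14% of those tested in RPF. It was in 15.4% of the further lysosomal genes and 23.1% of the V-ATPase genes. In Cln3 it was flanked by a further G and C that complete the CLEAR element (2.5%, against 0.37% of all genes and 0.769% of those tested in RPF). That element was in 3.85% of the genes of translocation and folding in the endoplasmic reticulum, and in 0% of the further lysosomal and V-ATPase genes. The 5 genes with TCACGTGA are shown with 1 window of 30 bases each on the gene's strand, beside 1 of the 4 windows of Lamp1 that hold the core, with the matched letters in capitals, and also a G before or a C after TCACGTGA where present.
Cln3, chr7:126583340-126583369, strand -: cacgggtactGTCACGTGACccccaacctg
Ctsa, chr2:164833749-164833778, strand +: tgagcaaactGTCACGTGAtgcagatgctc
Ctsd, chr7:142387908-142387937, strand -: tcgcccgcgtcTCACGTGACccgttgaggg
Gla, chrX:134601182-134601211, strand -: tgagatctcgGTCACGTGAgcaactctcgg
Mcoln1, chr8:3500462-3500491, strand +: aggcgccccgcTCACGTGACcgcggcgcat
Lamp1, chr8:13159134-13159163, strand +: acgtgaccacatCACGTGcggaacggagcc
The 5 genes with TCACGTGA had a median RPF log2 fold change of 0.081 with 4 of 5 higher, and the 35 others with a promoter 0.068 with 31 of 35 higher. In RNA the medians were 0.057 and -0.015. A match to these letters is a description of the window and not a measured binding site.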

How the data were processed

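Expected counts per gene were deposited by the authors in a table for each assay (RNA and RPF), as whole numbers and without normalization. Per their methods, adapters were removed with cutadapt 1.7.1, reads were filtered on quality with Trimmomatic 0.32, rRNA and tRNA reads were discarded with bowtie2 2.1.0, the rest were aligned to mm10 with TopHat2 2.0.9, duplicates were removed by molecular identifiers, and RSEM 1.2.11 counted RNA on transcripts and RPF on coding sequences without 30 bases at each end. Such counts carry the counting error of the assigned reads, and reads shared by overlapping or similar genes cannot be separated again. The tables hold 12 further columns of per-sample values (replicates 6 to 8) that belong to no sample here and were not used.

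Counts were scaled by TMM and filtered by filterByExpr. DHPG was compared with basal in edgeR 4.0.16 (R 4.3.3) by the quasi-likelihood F test, in RNA, in RPF and as their interaction, with Benjamini-Hochberg adjustment over all genes tested. Every SE is that of a log2 fold change, and every adjusted p is from edgeR unless another tool is named. Replicate number was a block, after the study's batch correction. Same-numbered basal and DHPG libraries deviated together (Pearson r 0.308 to 0.741 in RNA and 0.259 to 0.523 in RPF), against -0.679 to 0.467 and -0.383 to 0.290 for other numbers. The basal library correlated best with its own number in 5 of 5 in RPF and 3 of 4 in RNA, where basal 2 was closer to DHPG 3 (0.467) than to DHPG 2 (0.308). The labels do not say whether same-numbered libraries share animals. Log2 CPM used a prior count of 2. Lengths came from the GENCODE vM21 isoform with the longest coding sequence. Alternatives used DESeq2 1.42.0, limma 3.58.1 and ComBat from sva 3.50.0. The fits were tested on simulated data with 200 changed genes.

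The 45 genes, their kinds and all lists were chosen with earlier results of these data known. Values in every library are given for the genes with the largest changes among those of 1 direction in all pairs (5 at most in each direction and assay), the 5 with the highest basal RNA, the 4 highest and 4 lowest RPF to RNA ratios, and Lamp1, Lamp2, Ctsd, Ctsb, Psap, Grn, Mcoln1 and Npc1.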

Additional observations from a re-analysis of the deposited data

Results flagged for a closer look

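In 104 groups of 4 or 5 libraries, the gap between the most extreme library and its neighbour was compared with the range of the group. It was unusually wide in 8 groups, against about 5.2 by chance. Of these 8, 5 were libraries of replicate 4 and all 5 were low. In RNA, Npc1 had 120.1 CPM in basal replicate 4 (171 to 176 in the other basal libraries), Scarb2 had 176 CPM in DHPG replicate 4 (219.6 to 227) and Mcoln1 had 58.2 CPM in DHPG replicate 4 (72.1 to 77.7). In RPF, Mcoln1 had 57.4 CPM in basal replicate 4 (63.1 to 64.9) and Gm2a had 79.9 CPM in DHPG replicate 4 (93.8 to 96.1). The other 3 were in RNA. Gla had 24.1 CPM in DHPG replicate 2 (18.1 to 19.6) and Lipa had 27.0 CPM in DHPG replicate 2 (18.6 to 20.1), and the basal library of replicate 2 was the highest basal value of both genes too. Ids had 875 CPM in basal replicate 3 (985 to 1005).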

How the results depend on the processing

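Scaling by DESeq2's size factors in place of TMM changed no direction and no call among the 45 genes. The median RPF log2 fold change of the 45 genes stayed above 0 under every alternative run, from 0.052 to 0.084 with each replicate left out in turn, while that in RNA ran from -0.030 to 0.024 and that of the interaction from 0.037 to 0.077. Without a filter on low counts, 7 genes were called in RNA and 96 in RPF (1 and 29 with the filter), and at an adjusted p of 0.01 there were 8 in RPF. Without the replicate block 0 genes were called in RNA and 0 in RPF, and the lysosomal genes higher at an unadjusted p under 0.05 were 0 in RNA, 2 in RPF and 0 in the interaction (2, 18 and 3 with the block). With DESeq2 and the block, 0 genes were called in RNA, and the lysosomal genes higher at an unadjusted p under 0.05 were 1 in RNA and 11 in RPF. With ComBat followed by DESeq2, 102 genes were called in RNA and 431 in RPF, 12 of the 45 were called in RPF, and 5 were higher in RNA at an unadjusted p under 0.05. With limma the interaction had 0 of the 45 at that p. With each replicate left out in turn, genes called ran from 0 to 22 in RNA, from 3 to 71 in RPF and from 0 to 8 in the interaction. Of the 45, 0 to 1 were then called in RPF (Laptm4b, without replicate 3), and those higher at an unadjusted p under 0.05 were 0 to 6 in RNA, 8 to 22 in RPF and 1 to 5 in the interaction. The cause was not tested.

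The RPF log2 fold change turned its sign for 11 genes with values near 0. Without the block it was 0.015 for Fuca1, -0.0051 for Manba and -0.0020 for Npc2. With DESeq2 and the block it was 0.012 for Ctsh and 0.0091 for Fuca1, and with ComBat and DESeq2 0.017 for Ctsh, 0.0067 for Fuca1 and -0.0037 for Npc2. With each replicate left out in turn it ran from -0.025 to 0.032 for Asah1, from -0.048 to 0.033 for Cd68, from -0.056 to 0.100 for Ctsh, from -0.014 to 0.076 for Ctss, from -0.031 to 0.060 for Fuca1, from -0.0013 to 0.069 for Gusb, from -0.067 to 0.024 for Idua, from -0.015 to 0.029 for Man2b1, from -0.030 to 0.075 for Manba, from -0.042 to 0.033 for Npc2 and from -0.011 to 0.080 for Smpd1.

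With a median SE of 0.040 in RPF and 0.079 in RNA, changes of the size seen in most of these genes lay near or under the precision of a single gene. Lengths of one isoform stand for all, which bears on every ratio at rest, and the median ratio was 0.46 without division by length and 0.32 with the isoform of the shortest coding sequence.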
